A study of Mus musculus with 4 samples.

Results

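The replicate 1 only peaks near coding gene ends are 242 sites that a FLAG ChIP-seq peak caller found in 1 of 2 lung immunoprecipitates and not in the other. A site was taken from the 4289 peaks of replicate 1 when it overlapped no replicate 2 peak by even 1 bp, lay on chromosomes 1 to 19 or X, and had its summit within 5 kb of either end of a RefSeq protein-coding gene. They are 242 of 2078 such unpartnered replicate 1 peaks and of 7121 peaks in the lists of both replicates. Of the rest, 1836 unpartnered replicate 1 peaks lay farther from coding gene ends. Peaks with the same nearness to a gene end served for comparison, namely 174 replicate 1 peaks with a replicate 2 partner, called shared here, and 69 peaks found in replicate 2 only.

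The study made 4 libraries, 2 immunoprecipitates and 2 inputs, from lungs of E15.5 mouse embryos (the number is the embryonic day). All 4 came from Hoxa5FLAG/FLAG embryos, in which both copies of the endogenous Hoxa5 gene carry a FLAG tag, and the immunoprecipitates were made with FLAG antibody F1804. The inputs were not analysed here, nor was tissue without the tag, so signal that does not depend on HOXA5 was not measured at any site. The titles read wt where the genotype label gives the tagged allele, peak names within the replicate 2 list bear a different replicate number, and no label says whether the replicates came from separate litters. Whether agreement or disagreement between the lists is technical in part was not tested.

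HOX proteins bind short sequences around TAAT, and they gain specificity by binding together with the TALE homeodomain proteins PBX and MEIS. Joint sites of HOX and PBX proteins have the form TGATNNAT. HOXA5 acts in the mesenchyme of the developing lung. Many promoters of broadly used genes are of another kind, being rich in CG dinucleotides and in GC boxes (GGGCGG), usually without a TATA box, and open in most cells. Sonicated open chromatin is known to be recovered in ChIP experiments of many targets, which is why the place and the sequence of the sites are described here. Whether that accounts for any of them was not tested.

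Sequence was at hand for promoter windows, which run from 250 bp before to 50 bp after a gene's start in RefSeq (GRCm38.p6, the mm10 build). Of the 242 summits, 29 lay inside the window of a coding gene. The bases before the start are shown for the 6 of these with the highest fold enrichment. The summits at Ccdc9 and Wdr75 lie 6 and 19 bp after the start, outside the bases shown, and matches after the start are not shown. The start of a printed sequence can differ from the outermost start used for distances below. Each sequence reads 5′ to 3′ towards the gene, and capitals mark matches on either strand to any of 7 motifs. The motifs are the HOX core TAAT, the joint HOX and PBX word TGATNNAT, the MEIS type TGACAG, the GC box GGGCGG, the ETS type CCGGAA, the box CCAAT and the TATA box TATAAA.
Gli2 (chr1:119053620-119053869, minus strand): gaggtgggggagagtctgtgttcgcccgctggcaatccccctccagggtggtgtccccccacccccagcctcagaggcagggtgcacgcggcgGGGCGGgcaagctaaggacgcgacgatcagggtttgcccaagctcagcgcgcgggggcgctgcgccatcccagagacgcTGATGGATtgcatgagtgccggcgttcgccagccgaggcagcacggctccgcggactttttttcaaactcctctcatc
Ccdc9 (chr7:16286018-16286267, minus strand): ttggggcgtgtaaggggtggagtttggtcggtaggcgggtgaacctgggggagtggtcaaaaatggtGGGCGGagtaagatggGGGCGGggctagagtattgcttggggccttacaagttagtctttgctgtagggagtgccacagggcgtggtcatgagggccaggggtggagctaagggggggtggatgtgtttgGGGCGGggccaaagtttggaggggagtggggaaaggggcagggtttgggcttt
Rnf4 (chr5:34336130-34336379, plus strand): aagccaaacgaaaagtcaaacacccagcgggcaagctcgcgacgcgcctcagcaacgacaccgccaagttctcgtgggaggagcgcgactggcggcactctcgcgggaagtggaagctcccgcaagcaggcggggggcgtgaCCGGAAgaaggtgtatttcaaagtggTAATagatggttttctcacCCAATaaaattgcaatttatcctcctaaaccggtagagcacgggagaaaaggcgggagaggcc
Cyb5r4 (chr9:87021779-87022028, plus strand): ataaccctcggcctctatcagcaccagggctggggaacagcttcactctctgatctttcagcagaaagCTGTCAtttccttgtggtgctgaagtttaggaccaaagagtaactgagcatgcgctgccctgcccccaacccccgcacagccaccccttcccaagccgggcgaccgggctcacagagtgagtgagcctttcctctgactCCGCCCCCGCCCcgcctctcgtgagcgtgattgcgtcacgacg
Wdr75 (chr1:45794916-45795165, plus strand): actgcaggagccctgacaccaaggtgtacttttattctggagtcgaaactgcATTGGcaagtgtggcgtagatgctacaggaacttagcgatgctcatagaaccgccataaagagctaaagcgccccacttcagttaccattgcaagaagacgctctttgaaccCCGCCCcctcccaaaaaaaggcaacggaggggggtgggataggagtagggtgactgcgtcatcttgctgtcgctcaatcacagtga
Flad1 (chr3:89411882-89412131, minus strand): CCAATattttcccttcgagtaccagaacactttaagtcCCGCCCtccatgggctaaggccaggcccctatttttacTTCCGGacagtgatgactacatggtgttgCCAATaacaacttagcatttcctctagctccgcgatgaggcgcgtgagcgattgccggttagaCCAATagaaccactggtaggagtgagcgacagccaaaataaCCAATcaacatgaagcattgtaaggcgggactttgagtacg
Of these 6, the Gli2 sequence alone holds a TGATNNAT word, TGATGGAT, which spans the summit 74 bp before the start. GC boxes are the commonest capitals, with 3 in Ccdc9, 2 in Cyb5r4 and 1 each in Gli2, Wdr75 and Flad1, and Flad1 also has 4 CCAAT matches. The Rnf4 sequence has 1 match each to the ETS type, the HOX core and the CCAAT box, and no GC box. A match is a run of letters and does not show that a protein binds there.

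Tcf7l2, Ube2h and Uba1, being 2 further members and a shared site, were chosen after their values were seen, to show the range. Tcf7l2 is the densest in GC boxes of the members shown, Ube2h is a member with a TGATNNAT word, and Uba1 is the shared site with the highest fold inside such a window.
Tcf7l2 (chr19:55741560-55741809, plus strand): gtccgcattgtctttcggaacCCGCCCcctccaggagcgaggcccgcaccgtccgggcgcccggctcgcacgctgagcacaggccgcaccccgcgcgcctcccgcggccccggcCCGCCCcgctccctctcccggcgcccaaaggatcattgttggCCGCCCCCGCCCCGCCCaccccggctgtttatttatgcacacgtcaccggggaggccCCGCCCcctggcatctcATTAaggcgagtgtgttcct
Ube2h (chr6:30304540-30304789, minus strand): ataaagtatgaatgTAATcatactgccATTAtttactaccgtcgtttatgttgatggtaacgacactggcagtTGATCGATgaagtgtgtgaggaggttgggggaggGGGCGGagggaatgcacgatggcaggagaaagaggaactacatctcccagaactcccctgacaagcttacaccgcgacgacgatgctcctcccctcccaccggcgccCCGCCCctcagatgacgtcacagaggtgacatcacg
Uba1 (chrX:20662646-20662895, plus strand): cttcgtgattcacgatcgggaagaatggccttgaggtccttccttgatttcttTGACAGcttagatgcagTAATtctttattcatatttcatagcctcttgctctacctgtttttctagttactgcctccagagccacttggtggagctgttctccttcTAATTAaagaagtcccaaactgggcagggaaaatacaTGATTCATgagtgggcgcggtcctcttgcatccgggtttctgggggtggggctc
The Tcf7l2 stretch contains 30 CG dinucleotides and 6 GC boxes, some of them overlapping, with its summit 9 bp before the start. The Ube2h stretch contains 15 CG dinucleotides, 2 GC boxes and the word TGATCGAT at the summit, 174 bp before the start. The Uba1 stretch contains 6 CG dinucleotides, no GC box, 3 TAAT matches, a pair of which overlap, and the word TGATTCAT at the summit.

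The members were chosen by the lack of an overlapping replicate 2 peak and by place, so their enrichment is given as a description with no test. Fold enrichment at the summit and −log10 q, a measure of confidence after correction for the many places tested, were given by the authors' peak caller and rank a peak within its own list only. Fold ranged from 1.5 to 10.2 with a median of 3.63 (quartiles 2.98 and 4.64), and −log10 q ranged from 2.03 to 73.4 with a median of 10.2. The unpartnered replicate 1 peaks farther from gene ends had nearly the same middle, a median fold of 3.64 and a median −log10 q of 10.4. Shared replicate 1 peaks near gene ends had a median fold of 5.72 and a median −log10 q of 34.6. At least 5-fold enrichment was reached by 41 members (16.9%), 16.3% of the farther unpartnered peaks and 56.9% of the shared ones. Members were also short, with a median of 324 bp and 3 over 1000 bp, against a median of 455 bp for the shared peaks. The plot of fold against −log10 q shows the members within the lower part of the range of the shared peaks, with no gap between the classes.

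**Figure D1:**
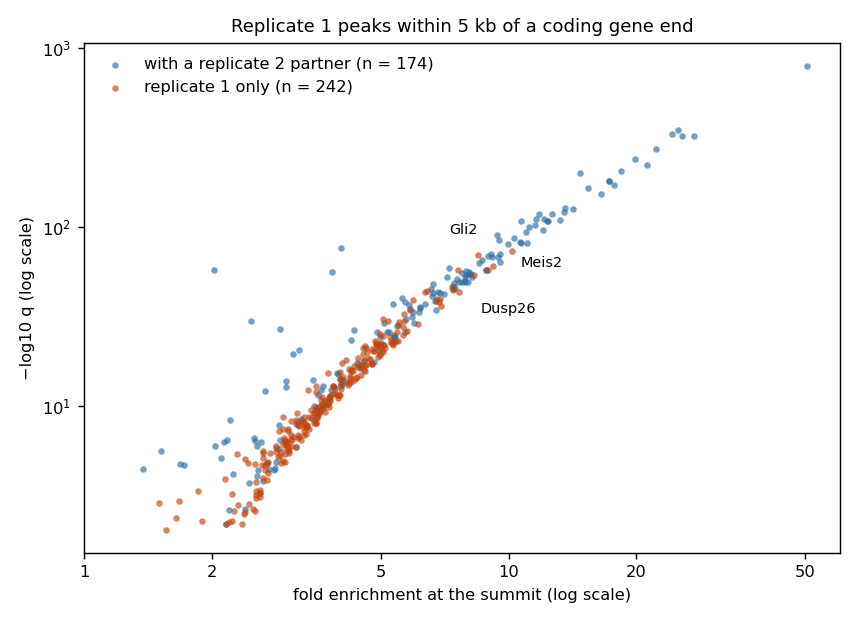
Fold enrichment at the summit (log scale) against −log10 q (log scale) for each replicate 1 peak with its summit within 5 kb of a coding gene end, 242 without a replicate 2 partner (orange) and 174 with one (blue). Members reach 10.2-fold at Meis2 while shared peaks reach 50.5-fold, and both classes follow the same curve except for some shared peaks with a high −log10 q at a low fold.

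Few members lay close to a called replicate 2 peak, and replicate 2 signal too weak to be called was not measured. The gap to the nearest replicate 2 peak had a median of 271.6 kb. It was 59 bp at Mcur1, which encodes a regulator of mitochondrial calcium uptake, and at most 1 kb at 3 members and 10 kb at 13. A shared summit lay within 100 kb of 52 members (21.5%).

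The rule took either end of a gene alike, so which end the summits kept to was not fixed by it. Strand is needed to tell a start from a far end, and the start was taken as the outer boundary of the gene. An end of a coding gene of known strand lay within 5 kb of 191 members, 139 shared peaks and 57 replicate 2 only peaks. These are the peaks with known strand below. The nearest coding gene of 56 members had no known strand, and some of these were read from a neighbouring gene. Of the 191 members, 71 (37.2%, 95% Wilson interval 30.6 to 44.2) had the summit within 1000 bp of a start. Of the shared peaks 22 did (15.8%, 10.7 to 22.8), and of the replicate 2 only peaks 10 (17.5%, 9.82 to 29.4), while 12.4% of all bases within 5 kb of such gene ends lay that close to a start. The member share was higher than that of the shared peaks by 21.3 percentage points (odds ratio 3.15, Fisher's exact test, two-sided, adjusted p = 4.3e-05) and than that of the replicate 2 only peaks by 19.6 points (odds ratio 2.78, Fisher's exact adjusted p = 0.00598). These tests treat peaks as independent and compare peaks of 2 libraries, not conditions. That unpartnered replicate 1 peaks lie nearer to gene ends than shared ones was known when the test was chosen.

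The classes also differ in fold, and the comparison was repeated with peaks of 2.5- to 5-fold only, an alternative added after the data were seen. The share within 1000 bp of a start was then 38.4% of 138 members, 2.17% of shared peaks (1 of 46, Fisher's exact adjusted p = 7.48e-07) and 24.4% of replicate 2 only peaks (10 of 41, Fisher's exact adjusted p = 0.136). The difference from the shared peaks passed here too, and the difference from the replicate 2 only peaks did not. Folds of different lists are not on a common footing. The starts used so far are outer gene boundaries, and a boundary is not always listed as a start in the promoter table. With every start of the promoter table in their place, the shares were 39.8%, 17.99% and 12.3%. The replicate 2 only count then fell from 10 to 7 of 57.

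Near starts the members gathered close to the start itself. Within 250 bp lay 35 members (18.3%), 21 upstream and 14 downstream. The next 250 bp held 15 members, 3 upstream and 12 downstream, and the distances from there to 1000 bp held 21, of which 14 were downstream. By contrast, 22 members (11.5%) lay within 1000 bp of the far end of a gene, a share close to the 10.8% of the shared peaks. Among genes of known strand, the nearest end was a start for 126 members (66.0%), 54.7% of the shared peaks and 52.6% of the replicate 2 only peaks. Neither difference passed (Fisher's exact adjusted p = 0.0804 and 0.0854). Summits lay inside a coding gene for 138 members and outside every coding gene for 104, and 21 were inside a non-coding gene or pseudogene.

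**Figure D2:**
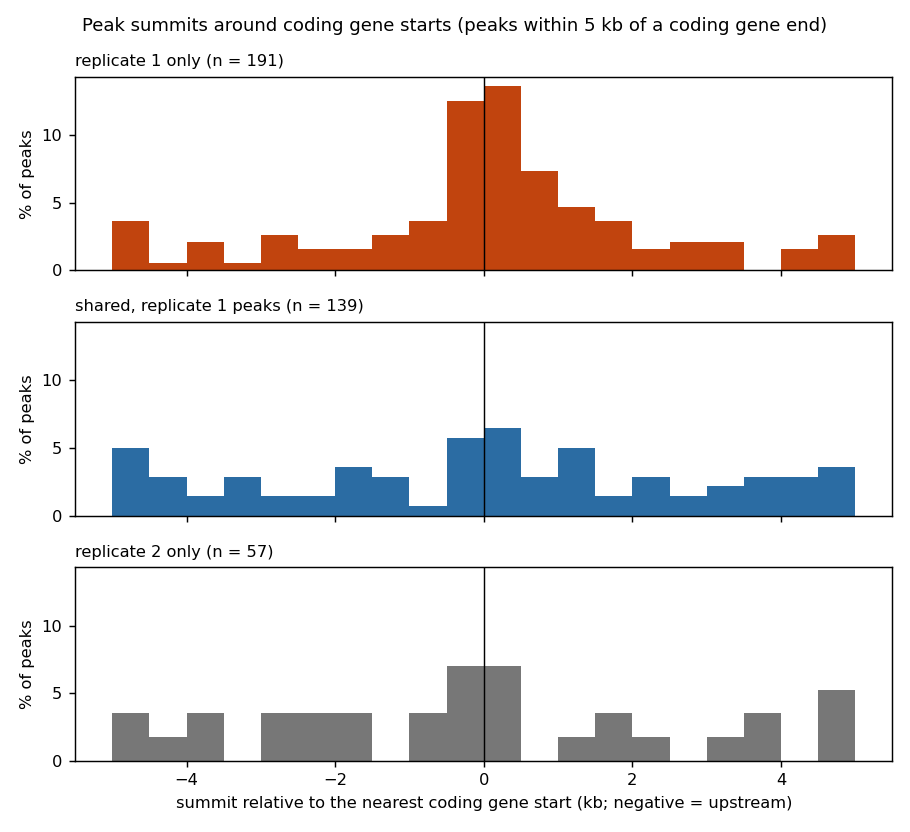
Distance from the start of the coding gene to the peak summit, for genes of known strand, as the percentage of each class of peaks in bins of 500 bp, negative being upstream. Peaks with no start within 5 kb count in each class and are not drawn. The 191 members pile up at the start, with 18.3% within 250 bp against 6.47% of the 139 shared peaks and 8.77% of the 57 replicate 2 only peaks.

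The promoters next to the members were mostly of the CG-rich kind. A promoter window was called CpG-rich when it had at least 0.6 of the CG dinucleotides that its base composition predicts and a GC content of at least 50%. Of the 78 coding promoters whose start lay within 1000 bp of a member summit, 67 (85.9%) were CpG-rich, with a median GC content of 64.7% and a median observed over expected ratio of 0.818. Over all 17273 coding promoters of known strand 46.3% were CpG-rich, with medians of 56.3% and 0.586. In that set each gene has a single window, the one nearest its outer boundary. Promoters next to peaks are the windows nearest the summit, which can belong to other starts. The motif shares below use the same sets. Of the 26 promoters next to shared peaks, 15 (57.7%) were CpG-rich, a lower share than next to the members (Fisher's exact p = 0.00459, a test chosen after the counts were seen, on promoters of which a few belong to the same peak). Next to replicate 2 only peaks 5 of 8 promoters were CpG-rich. Fold enrichment of the members had a median of 3.54 at the CpG-rich promoters and 3.80 at the 11 others. Accessibility of the chromatin was not measured here, so whether these promoters were open in the lungs was not tested.

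**Figure D3:**
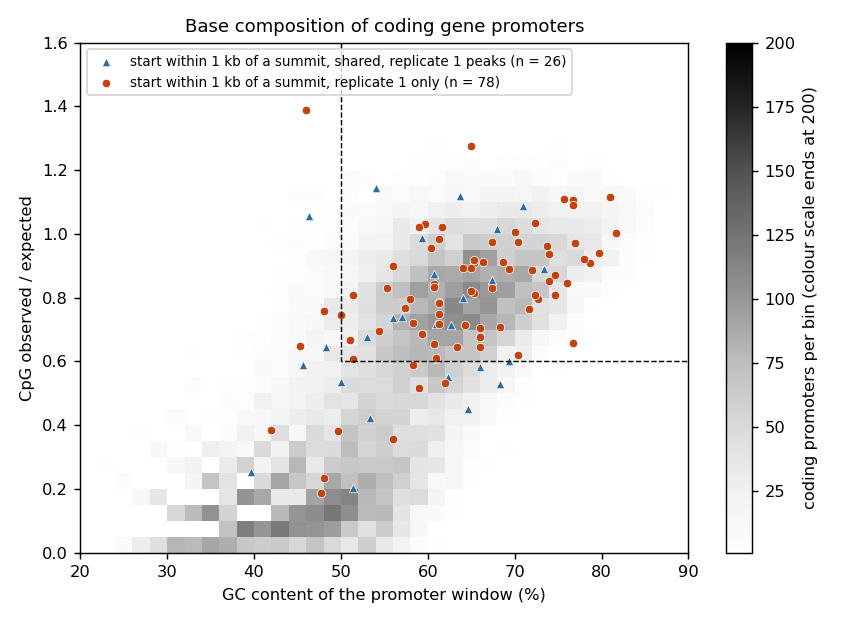
GC content (percent, horizontal) and ratio of observed to expected CG dinucleotides (vertical) in 300 bp promoter windows, with all 17273 coding promoters as grey shading, promoters next to members as circles and those next to shared peaks as triangles. Dashed lines mark the limits. Members sit mostly in the upper right cloud, with 67 of 78 past both limits (0.6 and 50%), against 15 of 26 next to shared peaks.

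For most motifs the member promoters held shares near those of all CpG-rich promoters. GC boxes occurred in 71.8% of the 78 promoter windows next to members, against 46.9% of all coding promoters and 76.8% of the CpG-rich ones. TAAT occurred in 34.6%, against 52.6% of all and 33.1% of the CpG-rich promoters. CCAAT (37.2%), TGACAG (16.7%) and CCGGAA (26.9%) were near the shares of CpG-rich promoters, which are 37.4%, 14.4% and 31.4%. TATAAA was found in 1 member promoter (1.28%), against 13.4% of all and 4.81% of the CpG-rich. TGATNNAT was found in 7 of the 78 (8.97%), all 7 of them CpG-rich, so that 10.4% of the CpG-rich member promoters held it against 2.46% of all CpG-rich promoters. Next to shared peaks the word was in 10 of 26 windows (38.5%).

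The motif shares differed more when only the bases around the summit were read. For the 29 members, 8 shared peaks and 2 replicate 2 only peaks with the summit inside a coding promoter window, matches were counted that reached within 50 bp of the summit. TGATNNAT was there in 8 of 8 shared peaks and in 6 of 29 members (20.7%), a difference that passed Fisher's exact test (adjusted p = 0.000544 over the 7 motifs, a test added after the counts were seen). Stretches of the same length and place in all coding promoters held the word in 2.73% of cases, so the member share lay between that background and the shared peaks. None of the other 6 motifs passed. GGGCGG was in 14 of 29 members (48.3%) and 4 of 8 shared peaks, and in 26.0% of the stretches placed like the members in all promoters. Stretches of CpG-rich promoters alone were not read. Over whole windows, GGGCGG was in 76.8% of CpG-rich promoters and 21.1% of the others, so the 26.0% is not matched to the members in base composition. TAAT was in 7 of 29 members (24.1%) and 2 of 8 shared peaks, with a background of 25.8%. TGACAG was in 4 of 29 (13.8%) and 1 of 8 with a background of 6.85%, and CCAAT in 6 of 29 (20.7%) and 4 of 8 with a background of 18.2% (lowest Fisher's exact adjusted p of these motifs = 0.609). Among peaks of at least 5-fold, 7 of 7 shared peaks and 1 of 7 members held TGATNNAT, the member being Gli2.

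The 6 members with the word are named here after their values were seen. Gli2 had TGATGGAT across the summit, and Osmr, the oncostatin M receptor gene, and Ube2h, a ubiquitin-conjugating enzyme gene, had TGATTCAT and TGATCGAT across theirs. Pygo2, a nuclear coactivator gene of Wnt signalling, had TGATTGAT 3 bp from the summit of a member that also lies 26 bp beyond the far end of Shc1. Brd3os had TGATCGAT 5 bp away and Ankrd40 had TGATTCAT 6 bp away. Their folds ran from 3.36 at Ankrd40 to 8.48 at Gli2 with a median of 4.69, and those of the 23 members without the word ran from 2.36 at Evi5l to 6.93 at Ccdc9 with a median of 3.80, so the ranges overlapped. The shared sites with the word included Slx4ip (TGATACAT across the summit, 11.2-fold), Ss18l2 (TGATTGAT across the summit, 8.66-fold) and Katnal1 (TGATAAAT across the summit, 2.89-fold). Summits outside these windows, which are most of the 242, were not read because no genome sequence was at hand.

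The members placed 284 of 21519 coding genes (1.32%) within 5 kb of a summit, with 1 such gene at 194 members and more at 48. Of the 284, 13 (4.58%) also had a shared summit within 5 kb, as did 187 of all 21519 coding genes (0.869%). The nearest genes numbered 234, and 8 of them had 2 members each, namely Meis2, Mettl21e, Samd3, Snx9, Abcc5, Nnt, Mill2 and Plscr4. Members were then grouped by what their nearest gene does. The groups were assembled after the gene names were read, so they are a description, and 96 members are in none of them.

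The 7 members at HOX and TALE genes, which encode HOXA5's own family and its DNA-binding partners, had a median fold of 4.57. Meis2 had the strongest member of all, 10.2-fold with a −log10 q of 73.4, at chr2:115860114-115860505 and 964 bp beyond the gene's far end. The other Meis2 member of 4.50-fold lay 2249 bp inside the gene from its start (chr2:116065173-116065779). Meis1, the paralogue, had a member of 5.75-fold 1021 bp inside its start (chr11:19018481-19018830). At Pbx3 a member of 3.85-fold lay 646 bp outside the gene (chr2:34372458-34372759), with a replicate 2 peak 3.74 kb away and a shared summit at 4.07 kb. Hoxa5 itself had a member of 4.57-fold whose summit was 138 bp inside its start (chr6:52203838-52204615), within 5 kb of Hoxa6 as well, and the nearest replicate 2 peak was 28.1 kb away. Its 778 bp made it the longest of the 71 members within 1000 bp of a start. In the HOXB cluster, a member of 4.70-fold lay 2471 bp inside an end of Hoxb3 (chr11:96309415-96309755), and one of 2.89-fold lay 126 bp inside an end of Hoxb5 and within 5 kb of Hoxb6 (chr11:96303361-96303787). Of the 4 members in this group with known strand, the Hoxa5 one was within 1000 bp of the outermost start of its gene. Counted from other annotated starts, the Meis1 member lay at 339 bp and the 4.50-fold Meis2 member at -669 bp, negative being upstream.

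Developmental regulators and signals had 26 members with a median fold of 3.91, and 8 of 21 with known strand were within 1000 bp of a start, where 37.2% of all members with known strand were that close. Gli2, the main activator among the transcription factors of hedgehog signalling, which passes from lung epithelium to mesenchyme, had the highest, 8.48-fold at chr1:119053478-119053894. Its summit lay 712 bp inside the outermost annotated start and beside a further start, the one whose sequence is printed above. Celsr3, a planar polarity cadherin gene, followed with 7.65-fold at 1040 bp inside its start. Tcf7l2, a transcription factor gene of Wnt signalling, had a member of 4.22-fold 4 bp inside its outermost start. Tbx2, a T-box gene of the lung mesenchyme, had one of 4.05-fold 993 bp outside an end, and Tcf4, a bHLH factor gene, one of 3.33-fold 1074 bp inside an end. Fgf7, a growth factor of the lung mesenchyme that acts on epithelium, had one of 4.30-fold 4883 bp inside its start. Id2, an inhibitor of bHLH factors found in the distal lung epithelium, had one of 3.42-fold 2673 bp upstream. Plvap, an endothelial gene of vessel fenestrae, had one of 4.61-fold 2586 bp outside an end. The members of this group thus included sites at starts and sites kilobases away.

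Genes with general cell functions formed further groups, and the share of all coding genes with such functions was not counted. Their group values can be read beside the median fold of 3.63 over all members and the 37.2% of all members with known strand that were within 1000 bp of a start, and no group was tested. RNA processing and translation had 21 members with a median fold of 3.18, and 11 of 17 with known strand were within 1000 bp of a start. Among these were Wdr75, a ribosome biogenesis gene (5.36-fold, 32 bp inside its start), Prpf8, which encodes the core protein of the spliceosome (2.83-fold, 141 bp), and Cpsf6 and Cpsf7, which encode partner proteins of pre-mRNA cleavage (2.86-fold at 402 bp and 2.67-fold at 265 bp). Chromatin and genome maintenance had 18 members with a median of 3.25-fold and 9 of 15 within 1000 bp of a start. The strongest were at Asf1b, a histone chaperone gene (8.29-fold, 421 bp upstream), and Cenps, a kinetochore gene (6.89-fold, 80 bp inside). The chromatin genes Setd4 (5.20-fold, not counted in the group), Brd7 (4.42-fold), Zmynd11 (4.19-fold) and Kat6b (3.42-fold) had members as well, and so did others at lower values, with 2.92-fold at Arid1a (876 bp upstream), 3.16-fold at Smarce1, 3.21-fold at Kdm3b and 3.04-fold at Kat6a.

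Ubiquitin pathway genes had 15 members with a median fold of 3.49, and 5 of 11 with known strand were within 1000 bp of a start. Rnf4, a ligase that acts on SUMO-modified proteins, had 6.42-fold 53 bp inside its outermost start (chr5:34336140-34336482), and Cul1, the scaffold of SCF ligases, had 2.53-fold 528 bp inside. Membrane traffic and cytoskeleton had 16 members with a median of 3.78-fold and 6 of 13 within 1000 bp of a start, among them Rhob, a small GTPase gene (4.62-fold, 159 bp upstream), and Cltc, the clathrin heavy chain gene (3.68-fold, 101 bp upstream). Mitochondrial and metabolic enzymes had 21 members with a median of 3.96-fold and 6 of 17 within 1000 bp of a start. Cyb5r4, a cytochrome b5 reductase gene, had 5.67-fold 170 bp upstream, Flad1, the FAD synthase gene, 5.27-fold 104 bp upstream, and Phb, which encodes prohibitin of the inner mitochondrial membrane, 5.03-fold 172 bp upstream.

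Other members of high fold fell in no group. Dusp26, a protein phosphatase gene, had 8.93-fold 2848 bp inside an end, and Ccdc9 had 6.93-fold 796 bp inside its outermost start. Grrp1 had 7.61-fold 146 bp upstream of its outer gene boundary, with no start of the promoter table within 1000 bp of the summit. Ppp3r1, which encodes the regulatory subunit of calcineurin, had 7.39-fold 59 bp inside its far end, and Dym, a gene of the Golgi apparatus, had 6.87-fold 817 bp inside an end. Meis2, Gli2, Asf1b, Celsr3, Cenps and Rnf220 (a ubiquitin ligase gene, 7.35-fold) were also among the 12 members of highest fold, and those named mix starts, far ends and places some kilobases from either.

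Members at multicopy gene families had low folds and lay away from starts, a difference from the other groups that was not tested. These 22 members had a median fold of 2.48, and 0 of 20 with known strand were within 1000 bp of a start. Of the 4 lowest folds of all members, 3 were here, at Gm3373 (1.5), Rex2 (1.56) and Gm3248 (1.67), and the other was at Rgs20 (1.65), which is in no group. Higher ones occurred too, as at Clec2d (6.75-fold) and Vmn1r60 (5.35-fold), the latter a vomeronasal receptor gene. Where copies are near-identical, reads can be placed at any of them, and whether this bears on any of these sites was not tested. The share of such reads was not measured here.

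Gene lists were set beside the 1.32% of all coding genes that had a member within 5 kb, with no test. Among TALE cofactors 3 of 11 had one (Meis2, Meis1 and Pbx3), and among Hox genes 5 of 39 (Hoxa5, Hoxa6, Hoxb3, Hoxb5 and Hoxb6), which share 3 members because their ends lie close together. A shared summit lay within 5 kb of 1 of the 11 TALE cofactors and 5 of the 39 Hox genes. For all 21519 coding genes that count was 187 (0.869%). Among lung mesenchyme transcription factors 3 of 35 had one (Gli2, Tbx2 and Tcf4), and Gli2 was the single gene of 16 in the hedgehog list. Of 93 chromatin regulators 6 had one (Setd4, Brd7, Brd3, Kdm3b, Smarce1 and Arid1a). Translation factors had 3 of 69 (Eef1e1, Eif4g2 and Eif3b), ubiquitin enzymes 5 of 142 (Ube2h, Fbxo30, Fbxl17, Fbxo11 and Cul1), and extracellular matrix 2 of 77 (Lama1 and Col14a1). A single gene each was found for the FGF list of 32 (Fgf7), the Wnt list of 54 (Tcf7l2), endothelium with 22 (Plvap), the proteasome with 39 (Psmd3) and both the lung epithelium and the BMP and TGF-beta lists of 43 (Id2). Splicing (Prpf8, 1 of 68), ribosomal proteins (Rpl3, 1 of 86), mitochondrial ribosome (Mrps18a, 1 of 78), histones (H1f0, 1 of 102) and zinc finger proteins (5 of 424) were near the share of all genes. Olfactory and vomeronasal receptors were below it with 6 of 1459 (0.411%). No gene had one among 87 of oxidative phosphorylation, 66 of replication and cell cycle, 31 immediate early genes, 22 of Notch, 19 of retinoic acid, 19 of blood, 16 of smooth muscle and 15 of liver. The lists with a member had 1 to 6 such genes each, and neighbouring genes share members. The lists are not complete, so a low count does not mean that a function lacks members. Pygo2, named above for Wnt signalling, is not in the Wnt list.

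**Figure D4:**
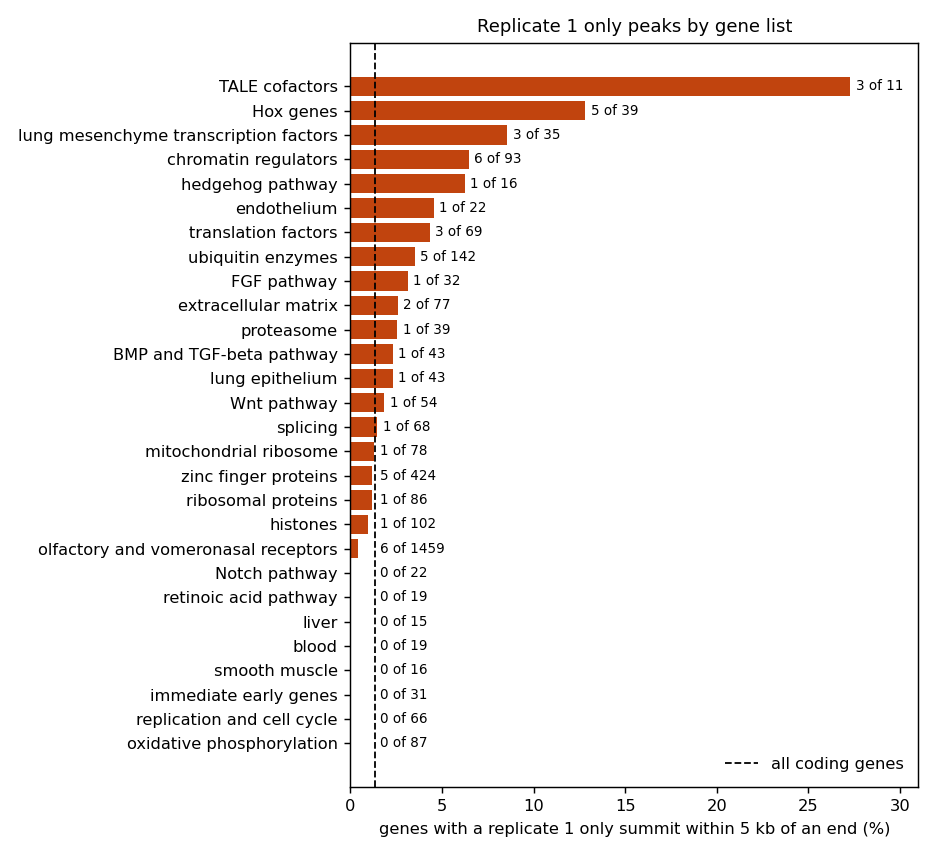
Percentage of the genes of each list that had a member summit within 5 kb of an end, with the number of such genes of all genes in the list beside each bar. The dashed line marks the 1.32% of all 21519 coding genes, and the TALE cofactor bar (3 of 11) and the Hox bar (5 of 39) are the longest.

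The limit of 5 kb fell within a run of like peaks. Just inside it were Rnf220 at 4977 bp (7.35-fold) and Fbxo30 at 4992 bp (3.49-fold), and just outside were unpartnered replicate 1 peaks near Naaladl2 at 5004 bp (2.46-fold) and Gnl1 at 5020 bp (8.32-fold). As a share of its class, nearness to a coding gene end was 11.6% of unpartnered replicate 1 peaks, 8.04% of shared replicate 1 peaks and 11.1% of replicate 2 only peaks, where 12.5% of bases were that near.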

How the data were processed

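HOXA5-FLAG occupancy was measured by ChIP-seq in 2 immunoprecipitates, and the authors deposited 1 peak list for each. Reads were processed on mm10 with Bowtie2 2.5.2 and MACS3 3.0.1, and also with SAMtools 1.18, bedtools 2.31.0, FastQC 0.12.1, deepTools and Trim Galore, per the submitters' processing notes. How each was set, which control MACS3 had and whether problem regions were removed is not given in the sources used here. The deposited fold enrichment at the summit is a ratio, the deposited −log10 p and −log10 q are the authors' values too, and the deposited score was not used. The lists hold no read counts, so depth is unknown. A deeper library lets weaker sites pass a threshold, which can leave peaks without a partner.

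Coding genes came from RefSeq (GRCm38.p6). Genes that start below 3 Mb, possible scaffold positions, were left out. Strand was known for 17273 of 21519 genes, those with a promoter sequence, and none of these was on chromosome 18. Places relative to starts use those genes. No genome sequence was used. Shares of peaks were compared by a two-sided Fisher's exact test, and p-values were adjusted (Benjamini-Hochberg) over the 2 comparisons of each measure, or over 7 motifs, at a threshold of 0.05, and intervals are 95% Wilson intervals, which cover counting error only. Scripts (Python 3.11.15, pandas 2.3.3, SciPy 1.17.1, statsmodels 0.14.6) were tested on simulated data.

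The members and gene lists were chosen with earlier results of these data known. Genes named are those nearest to the 12 members of highest fold, up to 4 members per list by fold, every gene with 2 or more members, the 6 members of highest fold inside a promoter window, and 2 peaks on each side of the 5 kb limit. A gene that this rule selects is not reported here. Other names were chosen after values were seen, as examples of the role groups or of motif matches. Alternatives varied the overlap rule, the −log10 q, the peak length, the distance limit, the genes used and the replicate.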

Additional observations from a re-analysis of the deposited data

How the results depend on the processing

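Summits within 100 bp for a shared peak, a replicate 2 peak within 1000 bp, a −log10 q of at least 5, a length of at most 1000 bp, a limit of 2500 bp and genes below 3 Mb left the number of members and of genes within 1.5 times and, but for 1 comparison given below, each test on the same side of its threshold. The −log10 q and length settings were applied to replicate 1 peaks only, and the replicate 2 only peaks compared stayed at 57. A limit of 10000 bp gave 393 members and 502 genes. Without replicate 2, which leaves no test, there were 416 peaks and 458 genes. Of the 330 peaks with known strand in that setting, 28.2% lay within 1000 bp of a start. Without replicate 1 no such peak exists. Across these settings that allow a test, the share within 1000 bp of a start ran from 23.2% to 52.6% and stayed above that of both other classes (Fisher's exact adjusted p at most 0.0476). The share whose nearest end is a start did not pass against shared peaks under any of them. With peaks of 2.5- to 5-fold only, added after the data were seen, it passed against shared peaks, at 68.8% against 37.0% (Fisher's exact adjusted p = 0.000412). Against replicate 2 only peaks neither share passed in that setting. The share within 1000 bp of a start was 38.4% against 24.4% (Fisher's exact adjusted p = 0.136). The share whose nearest end is a start was 68.8% against 56.1% (Fisher's exact adjusted p = 0.138). With summits required within 100 bp for a shared peak, the share whose nearest end is a start passed against replicate 2 only peaks (62.8% against 46.4%, Fisher's exact adjusted p = 0.0262). The cause of these changes was not tested. No paired analysis was possible because the replicate numbers are shared with inputs that have no peak list here, and the results come from peak lists with 1 library each. Depth is unknown, so how many members a deeper replicate 2 would have paired was not measured. Motifs at summits rest on 29 members and 8 shared peaks.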
